A study of Mus musculus with 9 samples.

Results

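Kcnq1ot1 is a long non-coding RNA transcribed antisense to Kcnq1, the gene of a voltage-gated potassium channel subunit, from a promoter inside an intron of that gene. The records analysed were the minus-strand peaks of a deposited SAFB peak list whose midpoints fall in the annotated Kcnq1ot1 gene (ENSMUSG00000101609.2, chr7:143203458-143296549, mm10, minus strand), and they number 19 of 30998 peaks in all. The choice used position and strand only.

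As background, Kcnq1ot1 is made by RNA polymerase II from the paternal chromosome, where its promoter is unmethylated, and stays in the nucleus as a largely unspliced transcript. In mouse embryo and placenta it silences neighbouring genes on the chromosome it is transcribed from, among them the growth restrainers Cdkn1c and Phlda2. SAFB (scaffold attachment factor B) proteins bind RNA and chromatin in the nucleus and are described as preferring purine-rich RNA.

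The study used RIP-seq, in which an antibody pulls down a protein with its bound RNA and the RNA is sequenced, in embryonic stem cells of the mouse. All cells were of the labelled strain CAST/B6 Male Rosa26-RMCE and had 3 days of doxycycline induction. A SAFB1 antibody was used on safb1/2 double-knockout clones 4 and 13 (2 libraries) and on wild-type cells, namely the parent line and clones 20 and 44 (3 libraries). A FLAG antibody was used on double-knockout clone 13 carrying a full-length safb1 plasmid (1 library) or an egfp plasmid (1 library), and IgG on the wild-type parent line and clone 20 (2 libraries). Both FLAG libraries come from 1 knockout clone, and the genotype label of the one with the safb1 plasmid reads WT while its title names clone 13. The list has no value per library, so no antibody or genotype could be compared, the depth behind a peak is unknown, and the 2 parental copies of the locus cannot be told apart.

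The sequences below show what lies under the peaks, read 5′ to 3′ along Kcnq1ot1 with T for U, from the GENCODE M21 transcript (GRCm38, the assembly mm10 names). Peaks are numbered from the 5′ end of the RNA. The 4 narrowest peaks are shown whole, because they are short, with purine runs of 6 or more bases in capitals. How closely their edges delimit the bound segment is unknown. They are peak 11 (chr7:143249216-143249354), peak 13 (chr7:143244990-143245063), peak 17 (chr7:143232484-143232557) and peak 18 (chr7:143225334-143225426).
peak 11: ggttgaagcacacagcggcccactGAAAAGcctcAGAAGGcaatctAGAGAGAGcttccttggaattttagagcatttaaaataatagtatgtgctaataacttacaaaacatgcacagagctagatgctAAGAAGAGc
peak 13: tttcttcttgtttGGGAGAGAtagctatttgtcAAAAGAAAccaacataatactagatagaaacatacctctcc
peak 17: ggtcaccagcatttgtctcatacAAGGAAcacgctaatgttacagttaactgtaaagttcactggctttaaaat
peak 18: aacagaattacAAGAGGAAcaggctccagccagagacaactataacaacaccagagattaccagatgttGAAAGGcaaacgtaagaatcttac

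The next 3 stretches, of 120 bases each, hold the most matches to any of 3 purine hexamers (AGAAGA, also GAAGAA, also AAGAAG) in the peak with most of them (peak 7, chr7:143255891-143256010), in the widest peak (peak 10, chr7:143251630-143251749) and in the peak nearest the 5′ end (peak 1, chr7:143291378-143291497). Capitals mark the matches.
peak 7: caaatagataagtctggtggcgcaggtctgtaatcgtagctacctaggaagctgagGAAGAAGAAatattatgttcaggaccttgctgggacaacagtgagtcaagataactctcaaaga
peak 10: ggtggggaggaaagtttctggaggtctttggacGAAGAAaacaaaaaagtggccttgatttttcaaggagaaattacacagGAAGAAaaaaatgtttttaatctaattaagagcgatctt
peak 1: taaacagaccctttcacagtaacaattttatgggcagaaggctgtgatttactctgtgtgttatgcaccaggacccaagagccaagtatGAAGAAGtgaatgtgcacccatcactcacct

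The last pair shows the extremes of base composition among the peaks. They are the most purine-rich 120 bases of the most purine-rich peak (peak 12, chr7:143248431-143248550; purine runs of 6 or more in capitals) and the least purine-rich 120 bases of the least purine-rich peak (peak 8, chr7:143253845-143253964; pyrimidine runs of 6 or more in capitals).
peak 12: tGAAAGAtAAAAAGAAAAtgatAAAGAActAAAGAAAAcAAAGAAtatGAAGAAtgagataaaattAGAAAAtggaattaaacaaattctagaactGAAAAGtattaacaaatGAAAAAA
peak 8: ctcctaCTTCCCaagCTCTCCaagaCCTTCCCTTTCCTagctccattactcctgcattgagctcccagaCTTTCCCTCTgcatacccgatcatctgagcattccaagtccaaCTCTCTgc

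SAFB peaks lay between 3.88 and 85.0 kb from the annotated start of Kcnq1ot1 and crowded in its middle. Of 24 bins of 4 kb, the last of them shorter, 9 had no base under a peak. Cut into 3 segments of 31.0 kb each, the RNA held most peaks in the middle segment, with 13 peaks (68.4%, exact 95% binomial interval 43.4 to 87.4), while the 5′ segment and the 3′ segment held 3 each (15.8%, 3.38 to 39.6). Peaks covered 25.7% of the middle segment, 12.1% of the 5′ segment and 2.23% of the 3′ segment, and 13.3% of the 93.1 kb RNA in all (12421 bases). These intervals take each peak as an independent draw and hold counting error alone. With a single list there is no replicate spread to set beside them.

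Read from the 5′ end, the RNA began with 3879 bases without a peak. Peak 1 followed at 3.88 to 5.17 kb from the annotated start, a broad peak of 1293 bases (chr7:143291378-143292670). After it came the longest stretch without a peak, 16066 bases. Peaks 2 and 3, of 900 and 1573 bases, then lay close together between 21.2 and 24.1 kb, 357 bases apart. Beyond them another 10.4 kb were free of peaks. The 5′ segment thus held a lone broad peak and a close pair of broad peaks, with long stretches free of peaks between and after them.

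The crowded part began at 34.5 kb with peak 4 (252 bases) and was densest between 37.5 and 48.4 kb. There, peaks 5 to 12 followed each other with gaps of 305 to 1181 bases, the shortest of them between peaks 9 and 10. These 8 peaks spanned 10.9 kb, which is 11.7% of the RNA, and held 51.6% of all bases under its peaks. They covered 58.6% of that stretch, against 7.32% of the rest of the RNA. The stretch was delimited after its peaks were seen, as the longest run with gaps under 2000 bases, so these shares describe it and test nothing. Peak 10 (chr7:143249855-143252084), at 44.5 to 46.7 kb, was the widest of all, with 2230 bases or 18.0% of the covered length.

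Towards the 3′ end the peaks were mostly narrower and farther apart than in the crowded part. Peaks 13 to 16, between 51.5 and 60.4 kb, measured 74, 335, 290 and 602 bases. Peaks 17 and 18, near 64.0 and 71.2 kb, measured 74 and 93 bases. After peak 18 there were 13.3 kb without a peak, then peak 19 at 84.5 to 85.0 kb with 525 bases, and none in the last 8053 bases. The median width was 1293 bases in the 5′ segment (900 to 1573), 414 in the middle segment (74 to 2230) and 93 in the 3′ segment (74 to 525). The widths of the 5′ and 3′ segments did not overlap, but each of these segments held only 3 peaks. Across the 19 peaks, which share a transcript and a list, Spearman's rho between distance from the start and width was -0.58 and Pearson's r -0.48.

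**Figure D1:**
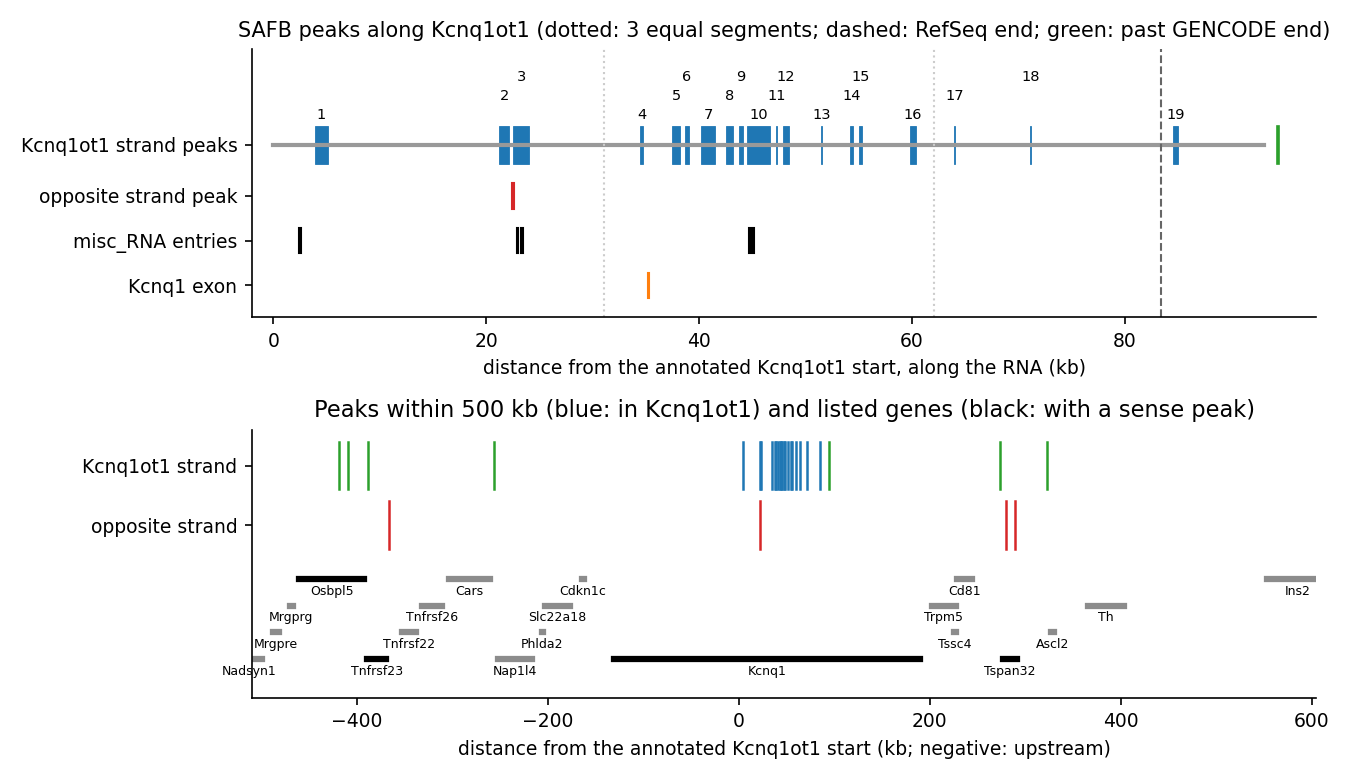
The upper panel places the 19 Kcnq1ot1 peaks (blue, numbered) by distance from the annotated start in kb, with the opposite-strand peak, the annotated misc_RNA entries and the Kcnq1 exon in the span, and the lower panel shows all peaks within 500 kb by strand above the listed genes. Of the blue peaks 13 fall between the dotted lines that bound the middle segment, and the flanks hold 10 peaks in 1000 kb.

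The peaks of Kcnq1ot1 were 525 bases wide at the median, with quartiles of 271 and 825 bases, against a median of 596 bases and quartiles of 290 and 1100 bases in the whole list. Of the 19, 8 were wider than the median of the list. The 4 peaks of at least 1000 bases (peaks 1, 3, 7 and 10; 21.1%, against 28.9% of the list) held 51.3% of the covered length. At the other end 3 peaks (15.8%) were under 100 bases wide, against 5.46% of the list. Peaks 13 and 17 had the smallest width in the list, 74 bases, which 478 peaks shared. Gaps between neighbours had a median of 1896 bases, with 7 of 18 under 1000 bases and 3 over 10 kb.

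**Figure D2:**
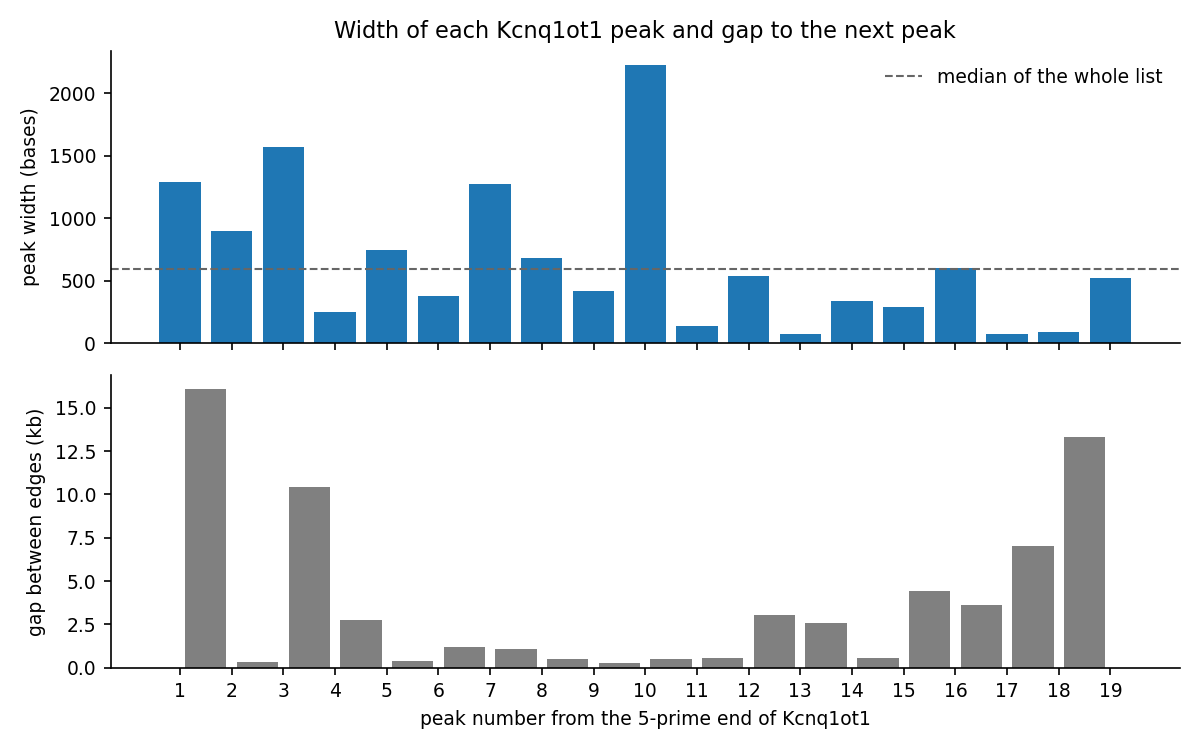
Bars give the width of each Kcnq1ot1 peak in bases (top, with the median of the whole list as a dashed line) and the gap to the next peak in kb (bottom), numbered from the 5′ end. All gaps from peak 5 to peak 12 are 1181 bases or less, and the gaps after peaks 1, 3 and 18 are the 3 longest.

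On the strand of Kcnq1ot1, a single peak lay slightly past its annotated end. It measured 252 bases (chr7:143202040-143202291, minus strand) and lay 1166 bases beyond the GENCODE end and 9.22 kb from peak 19. The only annotated gene there is Kcnq1, on the opposite strand. Whether this peak belongs to the Kcnq1ot1 transcript was not tested. The next minus-strand peak was 179 kb farther on. RefSeq ends the gene 9.65 kb earlier, at position 143213111, and on that model peak 19 (chr7:143211511-143212035) lies 1075 bases past the end. In the other direction no minus-strand peak occurred within 255.9 kb upstream of the annotated start.

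On the opposite strand of the Kcnq1ot1 span the list held 1 peak, of 187 bases (chr7:143273888-143274074, plus strand), and 167 of those bases coincide with peak 3. It was the only sense peak of Kcnq1 (ENSMUSG00000009545.14, chr7:143106362-143427042, plus strand), a gene of 321 kb. On the other strand Kcnq1 had 20 peaks, made up of the 19 in Kcnq1ot1 and the downstream one.  How strictly the libraries kept strand is not given in the sources used here, so reads of Kcnq1ot1 and of Kcnq1 in this peak cannot be told apart.

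The annotation places 4 short entries of the class misc_RNA within the span, all on the plus strand. Of these, 3 lay wholly inside Kcnq1ot1 peaks, and those peaks were the widest pair. A wide peak can more readily hold a whole entry. Peaks covered 13.3% of the RNA, and the count of entries was not tested against that share. Gm27395 (chr7:143251367-143251826) lay in peak 10, and Gm27389 (chr7:143273053-143273247) and Gm27803 (chr7:143273566-143273684) lay in peak 3. Gm27539 (chr7:143293932-143294155) lay before peak 1 and in no peak. The annotation gives these entries no function. A Kcnq1 exon inside the span (chr7:143261256-143261376) fell in the gap between peaks 4 and 5.

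The surrounding domain held peaks at about the rate of the whole list. Within 500 kb of the gene on both sides there were 30 peaks, and the 19 of Kcnq1ot1 made up 63.3% of them in 8.52% of the length. Of the 11 others, 7 were on the minus strand and 4 on the plus strand. Kcnq1ot1 held 204 peaks per Mb, counting its own strand alone. Both strands together held 10 per Mb outside the span and 11.4 per Mb over the whole list, taking each chromosome up to its last annotated gene.

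A list of 24 genes of this and the neighbouring imprinted cluster and its borders was chosen for context, and 5 of them (20.8%) had a sense peak, against 26.2% of all 21951 protein-coding genes. The share in the list was thus near that of protein-coding genes at large. Cdkn1c, an inhibitor of cyclin-dependent kinases, Phlda2, which limits placental growth, Slc22a18, a membrane transporter, Ascl2, a transcription factor of trophoblast, and Cd81 and Tssc4 held 0 sense peaks. Tspan32, a tetraspanin gene, held 2 peaks, Osbpl5, which encodes an oxysterol-binding protein, also 2, and Tnfrsf23, a decoy receptor of the tumour necrosis factor family, 1. Kcnq1 itself held the 1 described above, and Ano1, a chloride channel gene outside the window, held 5. Th, Ins2, Trpm5, Nap1l4, Cars, Tnfrsf22, Tnfrsf26, Mrgpre, Mrgprg, Nadsyn1, Dhcr7, Igf2 and H19 had 0. Outside the list, R74862 and E230032D23Rik each had 1 sense peak in the window. Expression values were not used here, so a gene without a peak is not shown to lack RNA.

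Kcnq1ot1 was among the genes of its size with the most peaks per kb. It had 0.204 peaks per kb, which ranked 31 among the 1053 genes with at least 5 sense peaks (median 0.0527 per kb). Of 5204 genes of 0.5 to 2 times its length, 48.2% had a sense peak at all, with a median of 2 peaks among those that did, and 4 had a higher density. These were 9330185C12Rik (0.302 per kb), Sulf1, a heparan sulfate sulfatase (0.278), Svop, a synaptic vesicle protein gene (0.232), and Mapk4, an atypical MAP kinase (0.212). Among the 912 long non-coding genes in that length range 149 had a peak, and 9330185C12Rik alone was denser. Over all lengths 7.34% of long non-coding genes and 12.8% of all genes had a sense peak. The amount of each RNA was not measured here.

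**Figure D3:**
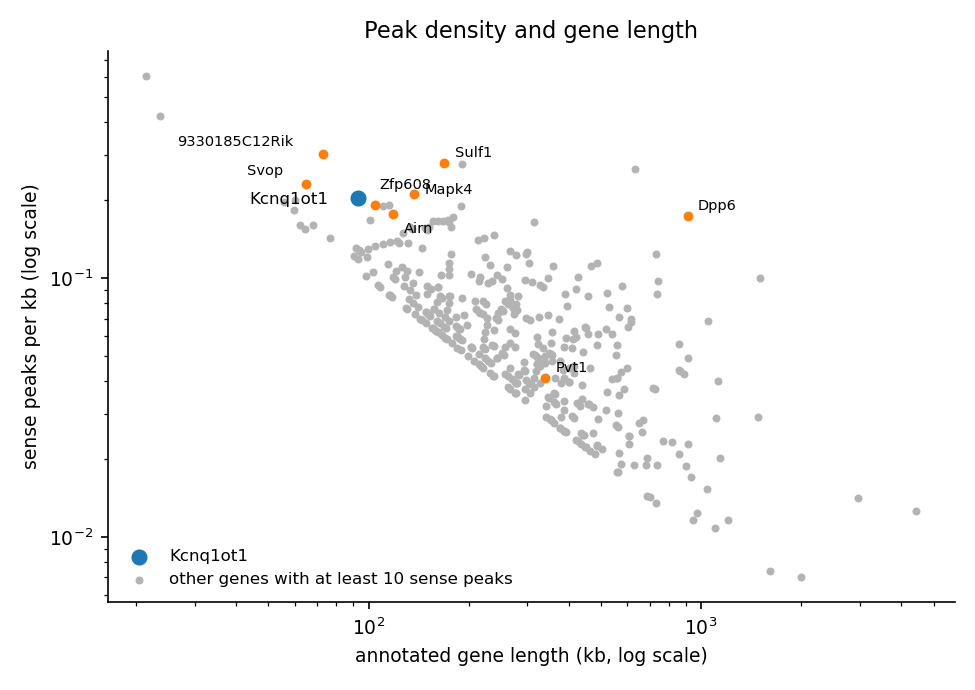
Sense peaks per kb are plotted against annotated gene length in kb, both on log scales, for Kcnq1ot1 (blue) and the other genes with at least 10 sense peaks (grey, with named examples in orange). Kcnq1ot1, at 93.1 kb and 0.204 peaks per kb, lies near the upper edge for its length, and the straight lower edge is set by the minimum of 10 peaks.

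The layout of peaks was set beside that of the 118 other genes of similar length with at least 10 sense peaks. Kcnq1ot1 had 68.4% of its peaks in the middle segment, against a median of 36.4% in the others, each cut into 3 equal segments. Among them 2 were as high, namely Ano6 (72.7% of 11 peaks) and Rps6ka3 (70.0% of 10 peaks). In the share of the gene covered by peaks, Kcnq1ot1 (13.3%) was reached by 29 of the 118, whose median was 7.60%. Many of the 29 are overlapping Pcdhga and Pcdhgb entries that share peaks. Overlapping entries were counted separately among the 118, so the ranks and medians here weigh such loci more than once. Its median gap of 1896 bases compares with a median of 4348.5 bases among them. By median width 89 of the 118 were at least as wide, and its longest gap (17.3% of the gene) was shorter than the median of the others (20.7%). The crowding in the middle was picked out after it was seen, and no test across libraries could be made.

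Airn, the imprinted antisense RNA that silences Igf2r and other genes on its chromosome, had 21 peaks over 118.8 kb (0.177 per kb). The peaks of the 2 RNAs were placed differently along the transcript. Kcnq1ot1 had 3, 13 and 3 peaks in its 5′, middle and 3′ segment, and Airn had 12, 9 and 0. Peaks were narrower in Kcnq1ot1, with a median of 525 bases (74 to 2230), against 981 bases in Airn (200 to 2274), and covered 13.3% of Kcnq1ot1 and 19.8% of Airn. The median gap was 1896 bases in Kcnq1ot1 and 1140 in Airn. The ranges of width overlap.

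Other imprinted or nuclear RNAs carried fewer peaks, although Nespas and Malat1 had as many or more per kb. Nespas, antisense at the Gnas locus, had 3 (0.211 per kb of its 14.2 kb), and Malat1, an abundant nuclear RNA, had 2 (0.286 per kb of 6.98 kb). Meg3 and Tsix had 2 each, Xist and Snhg14 1 each, Pvt1 14 over 340 kb (0.0412 per kb), and Neat1 and Peg13 none. Among the 8 annotated genes of at least 20 kb whose exons make up at least 90% of the gene, only Kcnq1ot1 and D10Wsu102e had a peak, and D10Wsu102e had 1 over 128 kb. Of all genes of at least 20 kb, 38.3% had a sense peak. Neat1 belongs to this set too, so a long unspliced annotation went with many peaks in Kcnq1ot1 alone of the 8.

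By density and median width together, the 5 genes with at least 10 peaks nearest to Kcnq1ot1, measured as distance in log2 units over 411 genes, were Zfp608 (distance 0.0933), 2900011O08Rik (0.0934), Mapk4 (0.105), Dpp6 (0.245) and B3gnt2 (0.296). Zfp608 encodes a zinc finger protein, Dpp6 an auxiliary potassium channel subunit and B3gnt2 a glycosyltransferase. Kcnq1ot1 had 68.4% of its peaks in the middle segment, and these genes had 25.0% (Zfp608), 22.7% (2900011O08Rik), 48.3% (Mapk4), 36.1% (Dpp6) and 47.1% (B3gnt2), all lower. All 5 are annotated with exons over less than 10% of the gene, unlike Kcnq1ot1, whose single exon is the whole gene.

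Base composition changed along Kcnq1ot1. Adenine made up 26.7% of the 5′ segment, 35.1% of the middle segment and 38.1% of the 3′ segment, and G and C together 46.3%, 39.0% and 35.6% in that order. The first 4 kb, which lie before and at the edge of peak 1, held 110 of the 596 CpG dinucleotides (18.5%). The 3′ segment was also rich in sequence found elsewhere. Of its words of 25 bases, 14.1% occurred on either strand of transcripts from other loci, against 1.64% in the 5′ segment and 0.822% in the middle segment. This share is a lower limit of repeated sequence, since only annotated transcripts were searched.

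The stretch with most such words, 72 to 76 kb (43.2%), lay in the 13.3 kb gap after peak 18. The 2 bins beside it, 68 to 72 kb and 76 to 80 kb, had 26.0% and 21.6%. The 16.1 kb gap after peak 1, by contrast, had 1.30% and the 10.4 kb gap after peak 3 had 2.76%. Inside peaks the share was 1.33%, against 6.21% outside. No such word occurred in 14 of 19 peaks, but the flanks of most peaks had none either. By segment the order differed, with 0.162% in peaks and 1.86% outside in the 5′ segment, 1.73% in peaks and 0.519% outside in the middle segment, and 3.39% in peaks and 14.4% outside in the 3′ segment. The share was above that of the flanks in 4 peaks and below it in 3, and the rest had no such word in peak or flanks. Peaks 15 (19.9%), 16 (13.7%) and 18 (8.70%) had the most. In peaks 15 and 16 this was above the share in their flanks, while in peak 18 it was below that of its flanks (26.95%). The part of shared sequence in the sparse 3′ peaks was not tested.

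**Figure D4:**
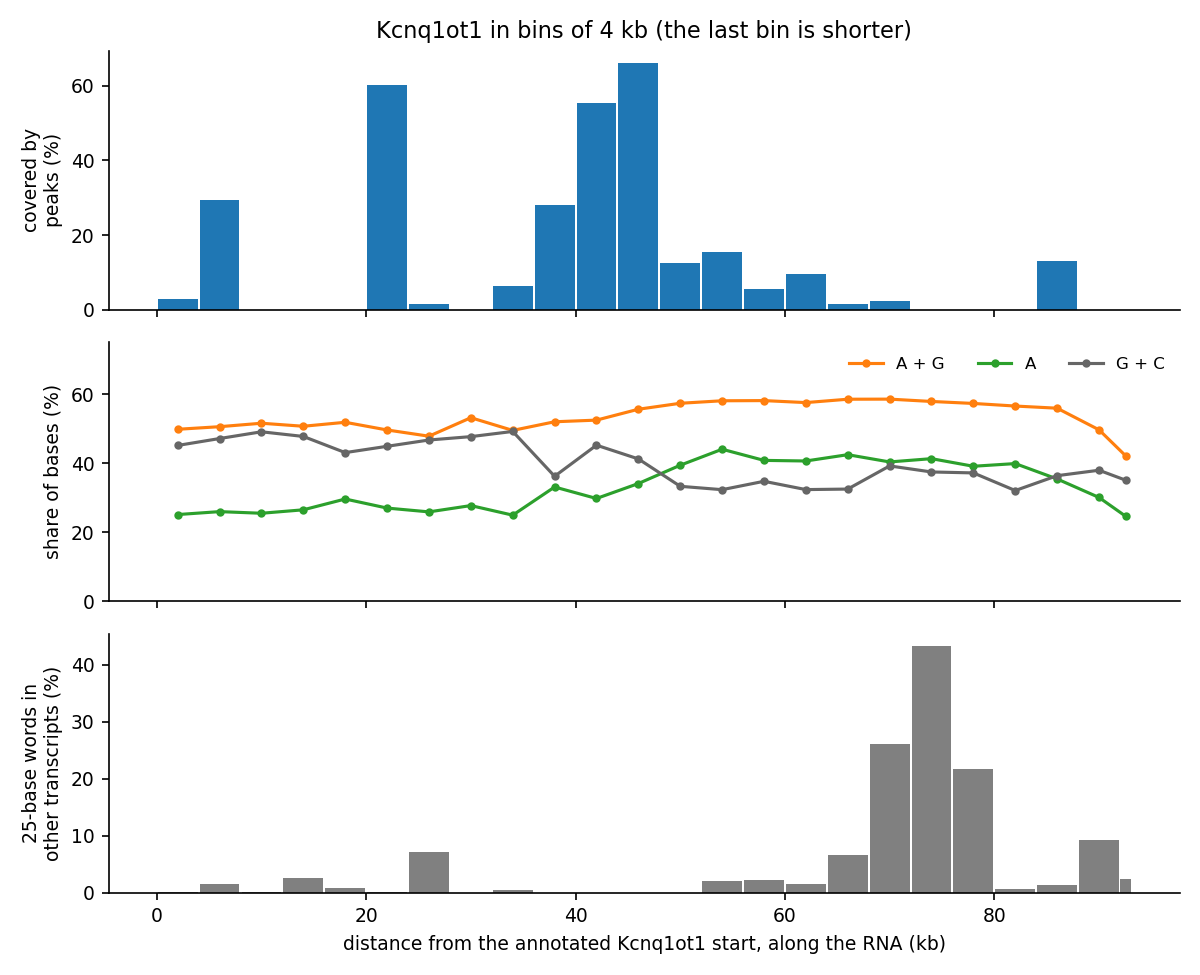
Along Kcnq1ot1 in bins of 4 kb, the panels give the share of bases covered by peaks, the share of A and G, of A alone and of G and C, and the share of 25-base words that occur in transcripts of other loci (all in percent). Coverage is highest at 20 to 24 kb and 40 to 48 kb, A at 52 to 56 kb (44.0%) and shared words at 72 to 76 kb (43.2%).

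Sequence under the peaks was slightly richer in purines than the rest of the same RNA. A and G made up 55.1% of bases in peaks and 53.5% outside, a difference of 1.59 percentage points. Within 1000 bases of the peaks the share outside was 54.0%, leaving 1.19 points. The difference was 2.10 points in the 5′ segment, 1.94 in the middle segment and 0.93 in the 3′ segment. With all peaks pooled, G was 22.6% in peaks and 20.1% outside, C 21.4% in peaks and 19.6% outside, and A 32.5% in peaks and 33.4% outside. G and C together made up 44.0% in peaks and 39.7% outside, a wider difference than that of the purines. Adenine was most frequent in the 3′ segment, where few bases lie under peaks, so the pooled values do not separate peaks from position. Against flanks of 1000 bases, A was higher in some peaks, such as peak 9 (36.2% and 28.1%). It was lower in others, such as peak 8 (20.1% and 28.0%). T was lower in peaks (23.5%) than outside (26.8%). No test was made of these differences, since neighbouring bases of a single RNA are not independent.

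Peak by peak, 15 of 19 had more purine than their own flanks of 1000 bases, with a median difference of 3.37 points. The flanks leave out bases under peaks, so they were shorter in the crowded stretch, with 829 bases in all for peak 9. Neighbouring peaks there share flank bases, so the 19 comparisons are not independent, and the count was not tested. The widest excess was in peak 9, with 61.8% in the peak and 51.0% in its flanks, followed by peak 1 (57.4% and 48.6%) and peak 5 (57.1% and 48.5%). Peak 12 had the highest share of all, 64.3%, of which 45.1 points were adenine, as its purine-rich stretch above shows. The 4 exceptions were peak 8 (38.7% in the peak, 50.7% in its flanks), peak 13 (50.0% and 54.8%), peak 15 (54.5% and 58.3%) and peak 17 (50.0% and 56.6%). Peaks 13 and 17 are the pair of 74 bases printed whole, and 3 of these 4 measure 290 bases or less.

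Peak 8 (chr7:143253328-143254012, 685 bases) stood apart from its neighbours in the crowded stretch. It had 38.7% purines, 55.6% G and C and no match to the 3 hexamers, while peaks 7 and 9 beside it had 57.9% and 61.8% purines with 9 and 5 matches. Its printed stretch is 30% purine, and pyrimidine runs of 6 or more bases take up 41 of its 120 bases. Without peak 8 the purine share of the peaks was 56.1% and the difference from the rest 2.55 points, against 1.59 with it.

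**Figure D5:**
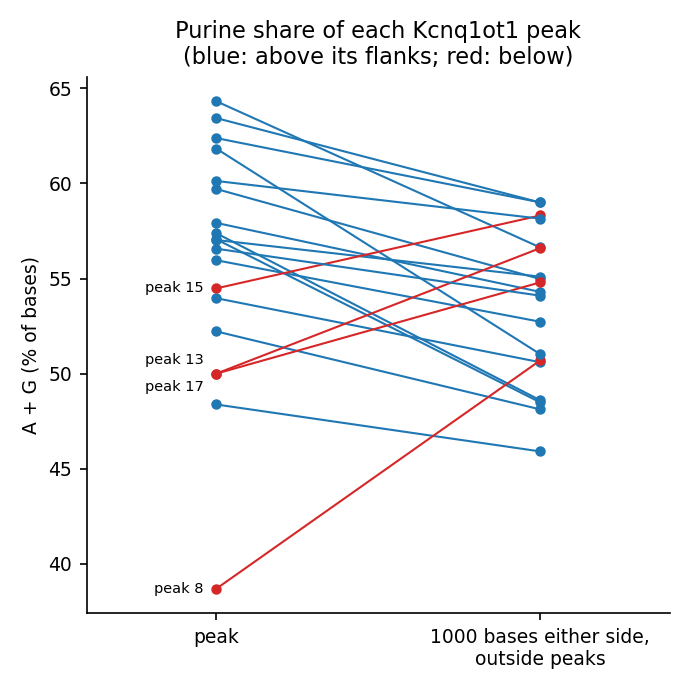
Each line joins the share of A and G in a Kcnq1ot1 peak (left) to that of the sequence within 1000 bases on both sides and outside peaks (right), in percent of bases. Blue lines, 15 of 19, are higher in the peak, and the red lines of peaks 8, 13, 15 and 17 are lower.

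The 3 hexamers were picked in earlier work on exonic peaks of this list, these included, so their count here is not independent evidence. They were searched on the RNA strand only, counting overlapping matches separately. Peaks held 49 matches (3.94 per kb) and the rest of the RNA 202 (2.50 per kb). GAAGAA had 1.45 per kb in peaks and 0.818 outside, AAGAAG 1.69 and 0.893, and AGAAGA 0.805 and 0.793. So the excess lay in GAAGAA and in the hexamer AAGAAG.

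It also lay in the middle segment. There the peaks had 5.02 matches per kb and the rest 2.08, while the 5′ segment had 2.12 in peaks and 1.98 outside. In the 3′ segment the order was the other way round, with 1.45 per kb in peaks (1 match) and 3.30 outside (100 matches). At least 1 match was present in 13 of 19 peaks, led by peak 7 (9), peak 10 (8) and peak 12 (6). Among peaks of at least 525 bases, the median width, 9 of 10 had a match. Within their central 525 bases 8 of the 10 had one, and of the 135 windows of 525 bases outside peaks 56.3% had one. Peaks 4, 8, 13, 15, 17 and 18 had none, and all but peak 8 of these are under 300 bases wide.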

How the data were processed

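The authors deposited 1 list of 30998 peaks giving position, name, strand and a score. The deposited score is 500 in every peak and was not used. The submitters' processing notes name mm10, STAR, Subread and featureCounts. For the peak caller, any pooling of libraries and the rule that kept a peak: not given in the sources used here. Starts were read as counted from 0 and are printed counted from 1. Peaks were assigned by midpoint and strand to GENCODE M21 genes (55450), and the transcript sequence of Kcnq1ot1 was read from the same release. Long non-coding genes are those of GENCODE's own set. Words of 25 bases were looked up on both strands of all transcripts of genes outside the span. Counting was tested on simulated data. Python 3.11.15, numpy 2.4.6, pandas 2.3.3 and scipy 1.17.1 were used.

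The members, gene lists and hexamers were chosen with earlier results of these data known. Genes were named by a rule: the genes of the domain, other genes with a sense peak in the window, 10 other non-coding RNAs, long nearly unspliced genes with a peak, and the 5 nearest by density and width. The other genes named, in particular those with higher density or a larger middle share and the short entries in the span, were chosen after their values were seen. Binomial intervals are exact (Clopper-Pearson, 95%). Depth per library is unknown from these values.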

Additional observations from a re-analysis of the deposited data

How the results depend on the processing

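The 19 peaks were the same number under any overlap, whole inclusion and starts counted from 1, and 18 on the RefSeq gene. Keeping peaks that reach the list's median width left 8 (0.0859 per kb), and joining peaks under 1000 bases apart left 12. Against genes in a narrower range of lengths around its own, the density of Kcnq1ot1 stood at percentile 100, against 99.9 in the wider range. The middle segment held 65.0 to 68.4% of the peaks under the alternatives run, and 64.1% of the bases under peaks. The purine difference was 1.19 to 2.32 points under other windows and backgrounds and 2.55 points with peak 8 left out, a setting chosen after seeing the data, as were the RefSeq gene, the middle segment, the local background and the hexamer count. The count of downstream peaks was 1 at each gap limit. No paired analysis was possible because the list has no value per library, and for the same reason leaving out a replicate was not possible. Depth limits cannot be stated from positions alone.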

Other observations

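Peak names in the list carry a running number, and if each number stands for 1 call, 44 minus-strand calls lay between peak 1 and peak 19, of which 19 (43.2%) were kept. Over the whole list at most 9.11% would have been kept, but the span of 44 calls begins and ends with a kept one, which raises its share by construction. Of the 25 calls that were not kept, 1 fell between peaks 6 and 7 inside the crowded stretch, which was itself delimited by kept peaks. Among the 24 others, 10 lay in the gap after peak 1, 3 each in the gaps after peaks 3, 15 and 17, and 2 in the gap after peak 18.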
